A study of Neurospora crassa with 19 samples.

Results

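The transcripts described here are the abundant messenger RNAs of the filamentous fungus Neurospora crassa that fall outside a set of separately treated pathways. A locus belonged to the set when its mean level over both RNA libraries was above 1000 CPM (a locus' count over the library's gene counts, times 1000000) and it was not among 24 named loci, which include histones, glycolytic enzymes and some highly expressed wall and clock-controlled genes. Of 9730 loci counted, 177 were above 1000 CPM, 21 of them were left out by name, and 156 remained. A gene symbol stood beside 43 of the 156 in the gene table, and the other 113 carried a locus number alone. Because the level itself chose the members, their levels are a description and were not tested.

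Both libraries hold poly-A RNA of strain N5801, labelled as carrying a complete deletion of dim-1 (NCU06484), the gene of a chromatin remodeler. Mycelium was grown with shaking for 16 h at 32 °C in Vogel's minimal medium with 1.5% sucrose, and the labels name the tissue as germinated conidia, the asexual spores of the fungus. The series has 19 samples, and the other 17 were not used here. There was no wild-type RNA among the samples used here, so nothing below says whether a level differs from wild type. Nothing in the labels says whether the 2 libraries came from separate cultures, so differences between them may be technical. The only comparison made is that of replicate 1 with replicate 2.

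The gene counts of replicate 1 summed to 17364963 and those of replicate 2 to 13632746, so a locus at 1000 CPM rests on 17365 and 13633 counts, with a counting error of 0.759% and 0.856%. The libraries differed by more than counting error. The chi-square statistic per degree of freedom was 97.8 over 8957 degrees of freedom, and the common coefficient of variation estimated by edgeR was 23.9%. A locus was called between the libraries when a two-sided exact binomial test on its reads gave an adjusted p under 0.05 and the difference after TMM scaling was 2-fold or more. Of 7898 loci tested this way 6.15% were called, with 5.04% on the side of replicate 1 and 1.11% on that of replicate 2. The test sets these 2 libraries against each other and treats reads as independent. Folds, log2 ratios and counts of loci on a side are after TMM scaling unless stated otherwise. CPM values are not so scaled, so a printed pair of CPM values can give a somewhat different ratio. The targeted gene dim-1 had 258 counts in replicate 1 and 171 in replicate 2 (13.7 ± 1.64 CPM, SD, n = 2) in these libraries labelled as its complete deletion, and what part of the locus those reads cover was not analysed here. Of 4 markers of asexual spores and aerial growth, con-8 (144 and 67.3 CPM) and con-10 (25.9 and 5.87 CPM) were called higher in replicate 1. Both con-6 (1.21 and 2.05 CPM) and eas (53.6 and 76.0 CPM) had their higher level in replicate 2, and neither was called. The level of con-6 rests on 21 and 28 counts, with an adjusted p of 0.096 in the exact binomial test. The 4 markers summed to 225 CPM in replicate 1 and 151 CPM in replicate 2. No read was counted for the mating-type gene mat A-1 or the sexual development gene fmf-1 in either library (0 counts, for which the upper limit is 0.173 CPM in replicate 1 and 0.220 CPM in replicate 2).

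A growing fungal hypha extends at its tip and must make cytoplasm, membrane and wall as it does so. Ribosomal proteins and elongation factors build and drive the translation machinery. The plasma membrane proton pump, fuelled by ATP from the mitochondrial ATP synthase, charges the membrane so that nutrients can be taken up. The wall is laid down from glucan and chitin and is decorated and cross-linked by wall proteins, some anchored to the membrane and some not. Many Neurospora transcripts, the clock-controlled genes among them, cycle with the circadian clock, and several of these are also abundant in mycelium.

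The 156 transcripts took 30.3% of all counts over genes in replicate 1 and 28.6% in replicate 2. The exact 95% intervals (Clopper-Pearson), 30.32% to 30.36% and 28.55% to 28.60%, cover counting error only. Members without a symbol held 21.3% and 20.2% of the counts, and members with a symbol 9.02% and 8.36%. The 10 highest members alone held 5.47% and 5.23%. Levels ran from 1002 to 9257 CPM with a median of 1506 CPM, and 120 of the 156 lay between 1000 and 2000 CPM, 24 between 2000 and 4000 CPM, and 12 above 4000 CPM. Of those 12, 3 had a symbol.

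The member with most counts was tef-1 (NCU02003), which encodes the translation elongation factor that brings aminoacyl-tRNA to the ribosome. Its level was 9307 CPM in replicate 1 and 9206 CPM in replicate 2 (9257 ± 70.8 CPM, SD, n = 2). Translation was well represented among the named members. Of 5 loci with a translation factor symbol, 4 were members, and of 11 with a ribosomal protein symbol, 7 were. The gene table gives only a few ribosomal proteins a symbol, so these counts describe the named loci and not the ribosome.

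cot-3 (NCU07700), the elongation factor that moves the ribosome along the message, stood at 3685 and 3593 CPM (3639 ± 65.2 CPM). cpc-2 (NCU05810), a scaffold protein of the small ribosomal subunit also needed for general amino acid control, stood at 1380 and 1263 CPM. eif5A (NCU05274), an elongation factor carrying a modified lysine, stood at 1216 and 1383 CPM. None of the 4 factors was called between the libraries, and tef-1, cot-3 and cpc-2 were within 1.1-fold between the libraries after scaling. The remaining translation factor with a symbol, un-10 (NCU02208), was below the threshold at 205 and 211 CPM.

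Among the ribosomal proteins, ubi::crp-6 (NCU04553), a fusion of ubiquitin with a ribosomal protein, was at 1659 and 1541 CPM. Its neighbour crp-5 (NCU04552) was at 1574 and 1429 CPM, and cyh-2 (NCU03806), in which mutations give resistance to cycloheximide, was at 1544 and 1476 CPM. These 3 had their higher CPM in replicate 1, by small margins. crp-7 (NCU08627) was at 1161 and 1199.5 CPM, crp-10 (NCU00489) at 1145 and 1115 CPM, crp-4 (NCU04331) at 1127 and 1072.3 CPM, and po (NCU07408), the acidic protein at the base of the ribosomal stalk, at 967 and 1046 CPM. The 4 named ribosomal proteins below the threshold lay close beneath it, with crp-3 at 985 and 993 CPM, crp-2 at 845 and 848 CPM, crp-15 at 790 and 856 CPM, and un-16 at 738 and 738 CPM. Named ribosomal proteins thus lie on both sides of the threshold of 1000 CPM, with no wide gap between them.

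After TMM scaling, the widest difference between the libraries among the 11 ribosomal protein loci was 1.13-fold, and none was called. The median log2 ratio (replicate 2 over replicate 1) of the 7 members was -0.0081, and that of the 11 loci was 0.055, which turned to -0.0014 under plain column sums. With no fold required, 8 of the 11 passed the exact binomial test with Benjamini-Hochberg adjustment, with adjusted p-values from 3.8e-24 for po to 0.0092 for un-16. The other 3, all members, did not pass it, with adjusted p-values of 0.636 for cyh-2, 0.368 for crp-10 and 0.403 for crp-4. Set on a common scale of CPM per kb of gene span (from gene start to gene end, introns included), the ribosomal members ran from 421 ± 23.5 for po to 1404 ± 32.1 for crp-7. tef-1 reached 2971 ± 22.7 and cot-3 997 ± 17.9 on the same scale.

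**Figure D1:**
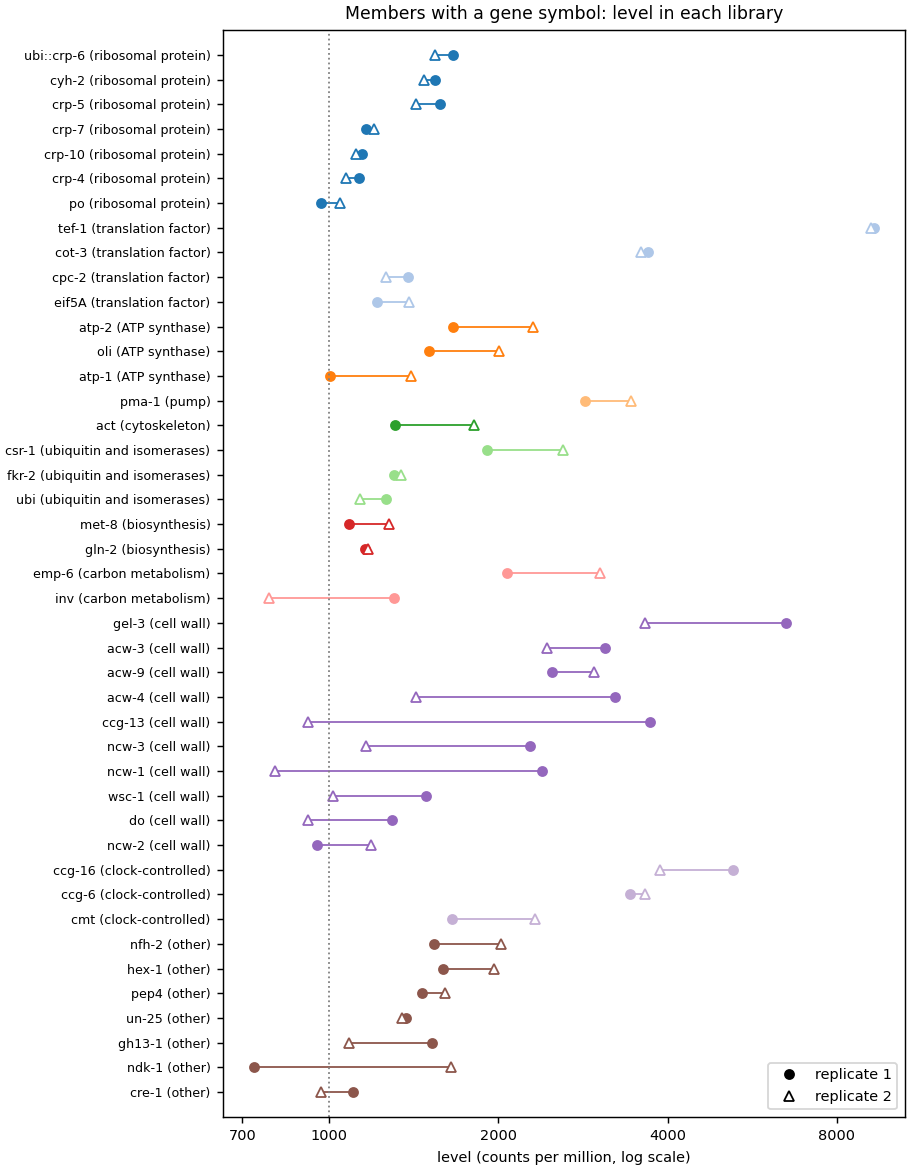
Level of each of the 43 members with a gene symbol, in CPM on a log axis, with a filled circle for replicate 1 and an open triangle for replicate 2 joined by a line, grouped by role in colour. The 7 ribosomal proteins and tef-1 have short lines, the 3 ATP synthase genes lie higher in replicate 2, and 8 of the 10 cell wall genes lie higher in replicate 1.

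The 3 named subunits of the mitochondrial ATP synthase were all members, and all 3 had a higher level in replicate 2. atp-2 (NCU05430), the catalytic beta subunit, was at 1660 and 2300.4 CPM (1980.0 ± 453 CPM). oli (NCU02250), the membrane proteolipid through which protons pass, was at 1503 and 2006 CPM, and atp-1 (NCU02514), the alpha subunit, at 1003 and 1398 CPM. The median log2 ratio of the 3 was 0.53 (0.47 under column sums), against 0.0017 for all 7898 loci tested, and none reached the 2-fold needed for a call. Other mitochondrial lists, which hold no member, lay on the same side, with 38 of 42 electron transport loci (median 0.34) and 20 of 22 carrier and import loci (median 0.42) higher in replicate 2. By CPM per kb of span, oli (1232 ± 250.0) stood above atp-2 (604 ± 138) and atp-1 (353 ± 81.9).

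pma-1 (NCU01680), the proton pump of the plasma membrane, was the only member among 19 loci with a pump symbol, at 2853 and 3449.6 CPM (3151 ± 422 CPM). The other 18 pump loci, mostly subunits of the vacuolar proton pump and calcium or sodium pumps, were not above 1000 CPM. In the list as a whole, 17 of 19 loci had the higher level in replicate 2, the median log2 ratio was 0.35, and 0 passed the test for a call. act (NCU04173), the gene of actin, was likewise the only member of 20 cytoskeleton loci, at 1309.9 and 1807 CPM (log2 ratio 0.52). Of the 20, 17 were higher in replicate 2 with a median log2 ratio of 0.28, and 0 were called. In both lists most loci were on the side of replicate 2, by less than the 2-fold a call requires. That side held 3964 of all 7898 loci tested and 233 of the 404 loci of 300 to 1000 CPM. Of all loci tested, 6.15% were called. The ATP synthase, electron transport and carrier lists above lay on that side as well, while the cell wall and clock-controlled lists below lay on the other.

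Other members act in protein folding and turnover. csr-1 (NCU00726), a cyclophilin and the target of cyclosporin, was at 1910.2 and 2610.2 CPM, and fkr-2 (NCU04140), a member of the FK506-binding family of folding enzymes, was at 1303 and 1340.3 CPM. ubi (NCU05995), the polyubiquitin gene, was at 1259 and 1134 CPM. pep4 (NCU02273), a protease of the vacuole, was at 1462 and 1608 CPM. None was called. In the list of 30 ubiquitin, proteasome and isomerase loci, 26 had the higher level in replicate 2 and the median log2 ratio was 0.33, while the 3 listed members named here and ubi::crp-6 split evenly, with a median of 0.023 that turned to -0.033 under column sums. A non-member of that list, rpn-4, was the only locus called of the 30, with its higher level in replicate 1. On that side 5.04% of all loci tested were called.

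Few members came from the lists of primary metabolism, where the rule had left out some loci by name. met-8 (NCU06512), methionine synthase, was at 1083 and 1276 CPM, and gln-2 (NCU04856), a glutamine synthetase, at 1157 and 1169 CPM. They were the only members among 63 loci of amino acid, nucleotide and one-carbon synthesis, whose median level was 83.1 CPM. inv (NCU04265), the invertase that splits the sucrose of the medium, was at 1302 and 780.3 CPM (1041 ± 369 CPM), and emp-6 (NCU02252), in the symbol family of glycolytic enzymes, was at 2072 and 3037 CPM. The invertase and emp-6 thus lay on opposite sides, by 1.60-fold and 1.52-fold, and neither was called at 2-fold. They were the only members among 18 loci of central carbon metabolism, of which 7 more were above 1000 CPM but left out by name. In that list 12 of 18 were higher in replicate 2 with a median log2 ratio of 0.46, and 3 were called, against 6.15% of all loci: fba, higher in replicate 2, and acu-15 and hgt-1, higher in replicate 1.

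Among the lists, which hold only loci with a symbol, the cell wall list gave most members, 10 of its 30 loci. Of the 156 members 113 have no symbol, so this ranking does not cover them. Above 1000 CPM but left out by name were 2 more wall loci, 7 of central carbon metabolism and 5 of the clock-controlled list. Of the 10 wall members, 8 had the higher level in replicate 1. The members' levels summed to 27421 CPM in replicate 1 and 16470.3 CPM in replicate 2. The members called were ccg-13, ncw-1 and acw-4, all higher in replicate 1. In the list of 30, 5 were called, all higher in replicate 1 (5.04% of all loci tested were called on that side), and 23 had the higher level there (24 under column sums), with a median log2 ratio of -0.30 for the list and -0.63 for its members. In bulk RNA, fewer cells of a kind and less RNA per cell cannot be told apart. The spore markers con-8 and con-10, given above, were also higher in replicate 1. On the other side were eas and, with few counts and no pass in the binomial test, con-6. The part of spore-forming tissue in these differences was not tested.

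ccg-13 (NCU08907), a clock-controlled gene placed in the wall list by its symbol family, had 3729 CPM in replicate 1 and 916 CPM in replicate 2 (2323 ± 1989 CPM). Its 3.92-fold difference after TMM scaling was the widest among the members, and the folds that follow are scaled likewise. ncw-1 (NCU05137), a non-anchored wall protein, had 2395 and 801 CPM, a 2.88-fold difference. acw-4 (NCU09263), an anchored wall protein, had 3218 and 1427 CPM, a 2.17-fold difference. For all 10 called members the adjusted p of the exact binomial test is listed as 0, too small to be held as a number, since that test counts reads as independent.

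gel-3 (NCU08909), of the family of enzymes that elongate and remodel wall glucan, was at 6487 and 3642 CPM (5064 ± 2011 CPM), the highest wall member by counts. ncw-3 (NCU07817) was at 2280.4 and 1160 CPM, just short of a call at 1.89-fold. wsc-1 (NCU06910), a sensor of wall stress in the plasma membrane, was at 1485 and 1016 CPM, and do (NCU06871), the beta-1,3-glucan synthase, was at 1291 and 915 CPM. acw-3 (NCU05667) was at 3098 and 2443 CPM. On the other side were acw-9 (NCU06185), at 2488 and 2963 CPM, and ncw-2 (NCU01752), at 950.0 and 1187 CPM. Anchored and non-anchored wall proteins were thus found on each side. By CPM per kb of span the order was different, with ccg-13 (2087 ± 1787) and gel-3 (1997 ± 793) overlapping at the top and do, the longest member at 7825 bases, at the bottom with 141 ± 33.9, the lowest value of any placed member.

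**Figure D2:**
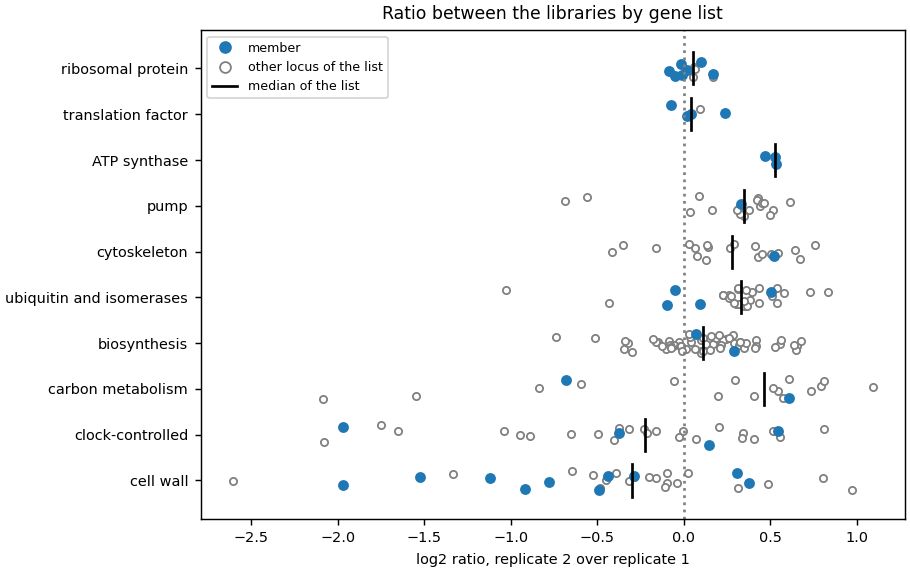
Log2 ratio of replicate 2 over replicate 1 (TMM scaling) for each locus of the 10 gene lists that hold members, with members in blue, other loci of the list as open circles and the median of the list as a black bar. Ribosomal proteins cluster at 0, ATP synthase genes lie near 0.53, and the cell wall list has its median at -0.30 with members reaching -1.97.

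Of 29 clock-controlled and conidiation loci, 4 were members and 5 more were above 1000 CPM but left out by name. ccg-16 (NCU05495) was at 5230 and 3878 CPM (4554 ± 956 CPM), and ccg-6 (NCU01418) at 3433 and 3652 CPM. cmt (NCU05561), copper metallothionein, a small protein that binds copper, was at 1655 and 2322 CPM. With ccg-13, described above, 2 of the 4 were higher in each library, and in the list 18 of 28 tested loci were higher in replicate 1. On that side 5 were called (6 under column sums), where 5.04% of all loci were. The 5 include the spore markers con-8 and con-10 and the wall list's ccg-13, all counted above. ccg-16 was the most abundant member per length, at 5493 ± 1153 CPM per kb of span, and cmt, with the shortest span of any member (662 bases), reached 3004 ± 712.

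The other named members belong to none of the lists. ndk-1 (NCU04202), nucleoside diphosphate kinase, was at 734 and 1646 CPM and was the only member called higher in replicate 2, at 2.33-fold. hex-1 (NCU08332), the protein that forms the crystalline core of the Woronin body, the organelle that plugs septal pores after wounding, was at 1592 and 1960 CPM. gh13-1 (NCU08131), of a glycoside hydrolase family, was at 1523 and 1085 CPM, and cre-1 (NCU08807), the carbon catabolite repressor, at 1101 and 966 CPM. nfh-2 (NCU02806) was at 1534 and 2023 CPM and un-25 (NCU05554) at 1367 and 1346 CPM. cre-1 is a transcription factor, and its level was within 1.1-fold between the libraries after scaling.

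Most of the abundance lay in loci without a symbol, to which no name or role is given here. Of the 10 highest members 7 were of this kind. After TMM scaling, 5 of these 7 differed between the libraries by 1.03-fold to 1.13-fold. The CPM values given here are not so scaled. NCU05498 was at 7072 and 6628 CPM (6850.1 ± 314 CPM), below tef-1 alone among the members. NCU07257 was at 5201 and 5152 CPM, and NCU04502 was at 4994 and 5008 CPM. NCU08330 was at 4338 and 4545 CPM, and NCU16635, the only member absent from the gene table, at 4088 and 4444 CPM. Both NCU10051 (4117 and 5034.5 CPM) and NCU01633 (3866 and 4805 CPM) were higher in replicate 2. Per kb of span, NCU05498 (4297 ± 197) and NCU04502 (3953 ± 8.07) stood above tef-1, with no overlap of their library values.

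Of the 113 loci without a symbol 6 were called (5.31%, against 6.15% of all loci and 9.30% of members with a symbol), all higher in replicate 1. NCU00399 had 5711 and 1951 CPM (2.82-fold), and NCU07232 had 3019 and 946 CPM (3.07-fold). NCU10040 had 4301 and 1654 CPM (2.50-fold) and NCU07569 had 3676 and 1378 CPM (2.57-fold). NCU08055 (1616 and 718 CPM) and NCU05136 (1545 and 684 CPM) each differed by 2.17-fold. On the replicate 2 side the widest were NCU07318 (1146 and 2104 CPM, 1.91-fold) and NCU06940 (2968 and 5377 CPM, 1.88-fold), short of a call, followed by NCU01328 (741 and 1290.0 CPM) and NCU16673 (2489 and 3704 CPM).

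Taking all members, 10 of 156 (6.41%) were called between the libraries, against 6.15% of the 7898 loci tested, so the share of calls among abundant transcripts was near the background. Of the 10, 9 were higher in replicate 1 (5.77% of members, against 5.04% of all loci) and 1 in replicate 2 (0.641%, against 1.11%). With no fold required, 139 members (89.1%) passed the exact binomial test, against 57.3% of all loci, and 17 did not. Loci of 300 to 1000 CPM passed it in 92.8%, so the members' share was not above that of the next most abundant loci. The exact test of edgeR at a common dispersion called 1 member, ccg-13 (0.641% of members, against 0.646% of all loci), and 10 members (6.41%) had an unadjusted p under 0.05 in it, against 5.44% of all loci. Its dispersion was estimated from the difference between these same 2 libraries, with 1 library on each side, so its p-values add no evidence beyond the folds.

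**Figure D3:**
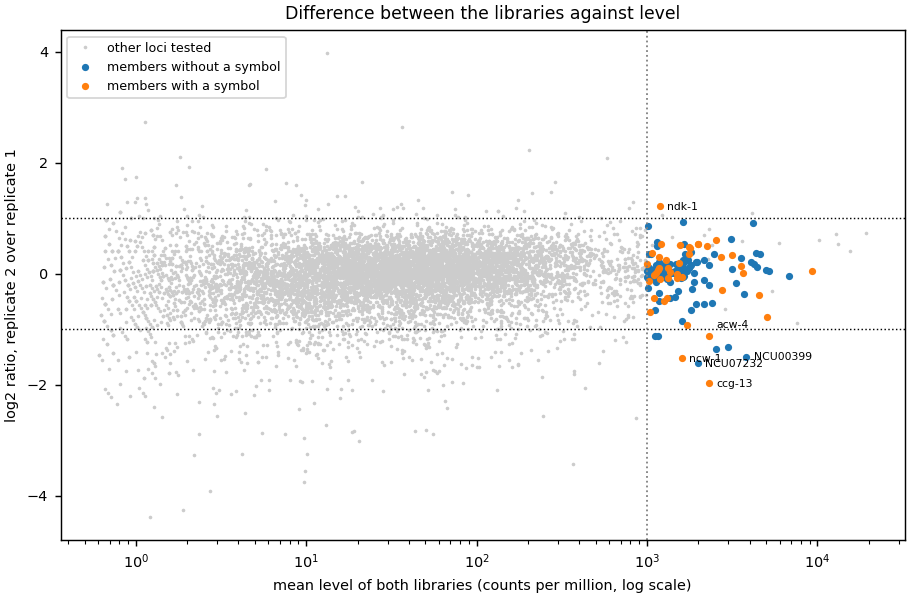
Log2 ratio of replicate 2 over replicate 1 (TMM scaling) against mean level in CPM on a log axis, for members with a symbol (orange), members without (blue) and the other loci tested (grey). Dotted lines mark 2-fold and 1000 CPM, and 9 of the 10 called members lie below the lower line while ndk-1 lies above the upper.

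Many members differed little. The median fold between the libraries was 1.12 for the members, 1.22 for all loci tested and 1.24 for the 404 loci of 300 to 1000 CPM. Within 1.1-fold were 68 of 156 members (43.6%), against 25.9% of all loci tested and 24.8% of the loci of 300 to 1000 CPM. The closeness lay mostly with the loci without a symbol, of which 54 of 113 (47.8%) were within 1.1-fold, against 14 of 43 (32.6%) with one. Of the 21 loci above 1000 CPM left out by name, 0 were that close, and their median fold was 1.51. Those loci were left out by pathway with results of these data known, so their contrast with the members is a description of that choice. At the other end, 21 members (13.5%) were at least 1.5-fold apart, against 20.8% of all loci. Of these members, 15 were higher in replicate 1 and 6 in replicate 2, and the split of all loci at 1.5-fold was not counted.

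**Figure D4:**
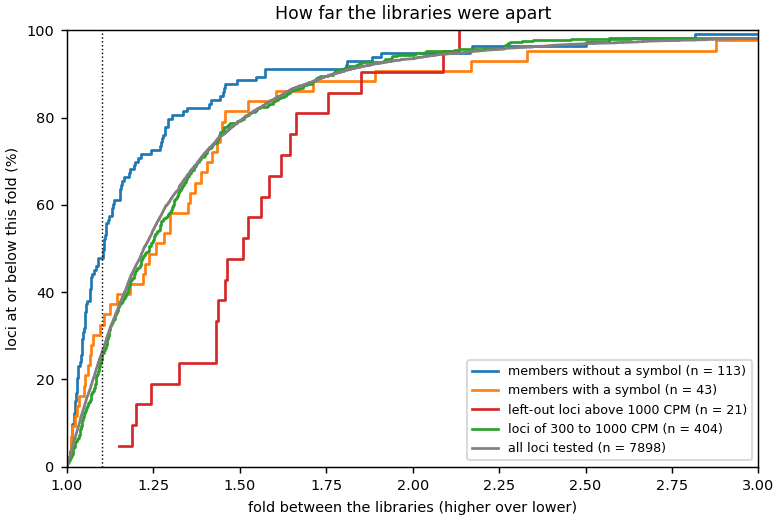
Share of loci, in percent, at or below each fold between the libraries (higher over lower level, TMM scaling), for members with and without a symbol, the left-out loci above 1000 CPM, loci of 300 to 1000 CPM and all loci tested; the axis ends at 3-fold. The curve of members without a symbol rises fastest and has passed 47.8% at the dotted line of 1.1-fold, where the left-out loci are at 0.

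In direction the members were near balance. Their median log2 ratio was 0.041, with 96 of 156 higher in replicate 2, and under plain column sums it was -0.015, with 73 higher in replicate 2, so no direction can be given for the set. The members nearest the threshold were close to the loci just outside it. Just inside were NCU03703 (1002 CPM), NCU00464 (1006 CPM), po (1007 CPM), NCU04639 (1012 CPM) and NCU01328 (1016 CPM). Just outside were crp-3 (989 CPM), NCU05488 (989 CPM), egt-1 (982 CPM), NCU08344 (979.8 CPM) and emp-3 (973 CPM). In 21 members 1 of the libraries was below 1000 CPM, while 135 were above it in both.

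Members lay on all 7 chromosomes of the gene table, from 1.01% of the loci on chromosomes IV and VI to 2.24% on chromosome II. Of the 310 positions next to a placed member, 16 (5.16%) were held by another member, where 1.59% of all placed loci were members. These 16 positions form 8 pairs, with no overlap of the spans within a pair. ubi::crp-6 and crp-5 adjoin on chromosome VII, gel-3 and ccg-13 on chromosome V, and ncw-1 and NCU05136 on chromosome VI, the last pair being the only one in which both loci were called. Spans of 51 members overlap another locus of the table, and how many of all loci do so was not counted. Of the 51, 3 were called, where 6.15% of all loci tested were. Reads set aside as ambiguous were 0.0728% of all rows' counts in replicate 1 and 0.0771% in replicate 2. Since the strand setting of the counting is not given, reads of the overlapping loci cannot be assigned with certainty.

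Members had somewhat shorter spans than other loci, with a median of 2132 bases against 2357 for all loci tested. Per kb of span their median level was 712 CPM, against 13.01 for all 7775 detected loci, a gap that follows from choosing the members by level. Within the set the order by counts and the order per length differed, as ccg-16, cmt and do show.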

How the data were processed

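Each library's file, as deposited by the authors, holds raw whole-number read counts per gene. Tools listed in the submitters' processing notes are HTSeq, TopHat, Bowtie, Bowtie2, SAMtools and DESeq. Which tool did what, its version, the build, the annotation and the strand setting were not given in the sources used here. Per the labels' protocols, the library kit was stranded. The 5 rows for reads outside genes (10.2% and 9.19% of all rows' counts) did not enter library sizes or tests.

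Members, gene lists and tests were chosen with earlier results of these data known, and list loci whose symbol matched a family by accident were removed after the matched names were seen. Levels are CPM over gene counts, with mean and SD over n = 2. With a single group of 2 libraries no quasi-likelihood test could be fitted. For every locus with at least 20 counts, a two-sided exact binomial test set replicate 1 reads against the TMM-scaled share (edgeR 4.0.16, R 4.3.3), with Benjamini-Hochberg adjustment over all loci tested. Log2 ratios are replicate 2 over replicate 1 with 0.5 counts added, after TMM scaling unless another scaling is named. Folds were taken from these ratios. edgeR's exact test with common dispersion and DESeq2 1.42.0 size factors were alternatives. Intervals and floors (3 counts) cover counting error only.

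Symbols and spans come from the RefSeq genes of assembly NC12, a table that matched 9729 of 9730 loci, 1118 with a symbol. Its coordinates are not printed, since the build of the counts is unknown. The 17 lists hold 352 loci, and 10 lists hold members. The 7 lists without members are electron transport (42 loci), mitochondrial carriers and import (22), heat shock (13), redox (12), small GTPases and traffic (25), lipids (6) and histones (9). Against 6.15% of all loci called, electron transport held 3 called loci (1 higher in replicate 1, 2 in replicate 2), redox held 1 (higher in replicate 2), and the other lists held 0. Named genes are the members with a symbol that are highest, highest or lowest in their list, or called, the members highest or furthest apart between libraries, the 5 on each side of the threshold, and list loci below it. The remaining members with a symbol, and called list loci that are no members, were named outside this rule, after their values were seen. Planned descriptions of promoters and proteins were not made, as no sequences were used here.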

Additional observations from a re-analysis of the deposited data

How the results depend on the processing

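The number of members was 156 at a mean above 1000 CPM, 36 above 2000 CPM and 336 above 500 CPM. It was 135 when each library had to pass, and 156 and 154 with TMM and DESeq2 size factors. Replicate 1 alone gave 156 and replicate 2 alone 158, and the share of counts in the members ranged from 28.6% to 30.3%. Of 10 members called, the exact test of edgeR at a common dispersion called 1, with 1 of 9 calls higher in replicate 1 and 0 of 1 higher in replicate 2. The dispersion of that test comes from the difference between the same 2 libraries, so it is no independent check. At 1.5-fold the calls were 21 (13.5% of members), of which 15 were higher in replicate 1 and 6 in replicate 2. Of all loci tested, 20.8% were at least 1.5-fold apart. How those split by side was not counted, so no lean of the members is read from it. DESeq2 size factors, column sums and no count minimum left each of 20 named loci, the 10 called members among them, called or not called as before. edgeR's exact test lost 9 of these 10 calls. Within 1.1-fold were 68 members with TMM or DESeq2 scaling and 77 with column sums. Among medians of the log2 ratio over members, those of all members (0.041 to -0.015), the translation factor members (0.030 to -0.026) and the ubiquitin and isomerase members (0.023 to -0.033) turned sign under column sums. So did the medians of the ribosomal protein list (0.055 to -0.0014), the translation factor list (0.041 to -0.016) and all loci tested (0.0017 to -0.054). The cause was the shift of 0.056 that column sums give every locus. No paired analysis was possible because the libraries form a single group. Neighbour pairs without overlapping spans, a check chosen after seeing the data, numbered 8 of 8. With 2 libraries, no spread of either can be estimated apart from the other, and depth did not limit these abundant loci.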
